A study of Homo sapiens with 12 samples.

Results

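The genes described here encode 9 proteins of the Polycomb repressive complexes: the PRC1 chromodomain subunits CBX2, CBX6, CBX7 and CBX8, the PRC1 ubiquitin ligase RNF2, the PRC2 methyltransferases EZH1 and EZH2, and the PRC2 core subunits EED and SUZ12. They were picked by symbol from a deposited table of read counts that lists 13853 genes, and all 9 were found and passed the filter on low counts. The choice was made with the change between knockdown and control already known, in particular the large difference in CBX6, so the values of the 9 genes in that contrast are a description and carry no test. The counts come from RNA sequencing of H1299, an established cell line from a human non-small cell lung carcinoma. The control group (shNT) had 3 libraries from cells with a control vector, and the knockdown group (shGAS41) had 3 libraries from cells in which GAS41, encoded by YEATS4, was depleted. Both groups were infected with viral supernatant plus polybrene and, 48 hours later, put under drug selection for 3 to 4 days. The drug was puromycin at 1.5 µg/ml where the vector was pLKO, and blasticidin at 10 µg/ml where it was pCDH; the labels do not name the vector of these samples. The labels call the knockdown by 1 name and give no hairpin. Nothing in them says that replicate libraries are separate cultures, so the tests see only how far these libraries differ from each other, which may be technical spread. The series has 6 chromatin immunoprecipitation samples as well, which were not analysed here.

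Polycomb proteins keep developmental genes silent. PRC2 places methyl groups on lysine 27 of histone H3 through EZH1 or EZH2, which work only together with EED and SUZ12. Canonical PRC1 holds a CBX protein, whose chromodomain binds that methylated lysine, and a RING1 or RNF2 subunit, which ubiquitinates histone H2A. The CBX proteins take the same place in the complex, and so do EZH1 and EZH2. EZH2 is known to be abundant in dividing cells, and EZH1 to be expressed in dividing and resting cells alike. GAS41 reads acetylated histone H3 and belongs to complexes that place the variant H2A.Z, which is found at many Polycomb target promoters in stem cells.

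The letters before the start site of CBX6, which differed most between the groups, are shown beside those of CBX7, a chromodomain paralogue on the same chromosome whose level hardly differed. Both are the 250 bases upstream of the RefSeq start in GRCh38.p14, written 5′ to 3′ along the gene, and the capitals mark CpG dinucleotides. CBX6 lies on the minus strand at chr22:38872217-38872466 and CBX7 on the minus strand at chr22:39152681-39152930.
CBX6: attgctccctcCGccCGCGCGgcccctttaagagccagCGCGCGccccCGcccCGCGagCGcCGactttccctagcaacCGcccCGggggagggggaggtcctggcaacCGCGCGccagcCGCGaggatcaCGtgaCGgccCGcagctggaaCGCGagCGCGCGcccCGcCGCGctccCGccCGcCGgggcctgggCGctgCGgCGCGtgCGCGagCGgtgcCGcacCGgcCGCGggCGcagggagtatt
CBX7: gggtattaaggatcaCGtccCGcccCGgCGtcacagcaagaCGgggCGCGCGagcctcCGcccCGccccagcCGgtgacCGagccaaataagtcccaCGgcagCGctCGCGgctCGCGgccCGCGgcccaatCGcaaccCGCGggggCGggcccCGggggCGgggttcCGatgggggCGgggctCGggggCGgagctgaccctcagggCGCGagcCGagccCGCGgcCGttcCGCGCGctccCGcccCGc
The CBX6 window held 45 CpG dinucleotides and the CBX7 window 41. Of 35116 RefSeq promoter windows of the same length, 99.4% held fewer CpG dinucleotides than that of CBX6 and 98.3% fewer than that of CBX7, and the median window held 11. A very CpG-dense start was thus common to the member with the largest difference and to one with almost none.

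Among the PRC2 genes, the counts gave lower EZH2 and EED and higher EZH1 after knockdown, and their upstream windows are shown for that reason. Capitals here mark matches, on either strand, to any of these motifs: E2F (TTTCCCGC, TTTGGCGC, TTTCGCGC or TTTGCCGC), the cell cycle homology region CHR (TTTGAA), the CCAAT box (CCAAT) and the TATA box (TATAAA). No motif matches overlapped in the windows shown. EZH2 is on the minus strand at chr7:148884292-148884541, the outer of its 2 listed starts. EED is on the plus strand at chr11:86244503-86244752, and EZH1 on the minus strand at chr17:42745041-42745290.
EZH2: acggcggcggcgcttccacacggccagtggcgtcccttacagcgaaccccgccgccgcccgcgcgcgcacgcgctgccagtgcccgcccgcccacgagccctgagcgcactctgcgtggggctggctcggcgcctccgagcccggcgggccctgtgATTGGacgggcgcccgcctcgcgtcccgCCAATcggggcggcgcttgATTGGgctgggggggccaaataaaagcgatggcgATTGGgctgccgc
EED: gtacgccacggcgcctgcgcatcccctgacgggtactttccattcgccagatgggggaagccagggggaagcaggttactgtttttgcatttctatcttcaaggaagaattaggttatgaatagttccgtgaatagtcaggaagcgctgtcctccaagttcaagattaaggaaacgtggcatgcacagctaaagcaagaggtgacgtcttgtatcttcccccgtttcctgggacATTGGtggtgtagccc
EZH1: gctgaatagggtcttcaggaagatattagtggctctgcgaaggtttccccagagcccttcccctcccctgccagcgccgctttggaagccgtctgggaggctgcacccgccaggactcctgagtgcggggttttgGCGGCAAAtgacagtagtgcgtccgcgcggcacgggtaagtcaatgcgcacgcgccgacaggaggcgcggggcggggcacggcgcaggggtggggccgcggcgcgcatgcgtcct
The EZH2 window held 4 CCAAT boxes, at 94, 66, 47 and 13 bases before the start, and the EED window held 1, at 16 bases. The window of the other EZH2 start, chr7:148883486-148883735, held no match to any of the motifs. The EZH1 window held no CCAAT box, and its 1 marked match was an E2F motif at 115 bases before the start. A CCAAT box occurs in 32.01% of the 35116 windows, one of the E2F words in 2.79%, the CHR word in 13.32% and the TATA box word in 10.72%. Of the other members with a listed promoter, SUZ12 held an E2F word, a CHR word and a CCAAT box, CBX7 a CCAAT box, and CBX6 and RNF2 no match to any of the motifs. The table held no promoter for CBX2 and CBX8. A match describes letters in the window and is not a measured binding site.

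The depletion itself was visible in every library. Control libraries held 3245, 2923 and 2820 reads of YEATS4, and knockdown libraries 108, 127 and 116. On the log2 scale the change was -4.68 ± 0.09 (SE; quasi-likelihood test of edgeR, Benjamini-Hochberg adjusted p = 6.35e-10). The libraries held between 58961101 and 72747010 counts in the control group and between 58629147 and 72516636 in the knockdown group. Of 13846 genes tested, 68.1% passed an adjusted p of 0.05, 33.6% higher and 34.5% lower, with a median log2 fold change of -0.01, so a call is the usual outcome for a gene in this contrast. Of the cell line markers checked, the epithelial keratin genes KRT8 (-0.67, adjusted p = 2.64e-07) and KRT18 (-0.44, adjusted p = 3.49e-06) fell and the mesenchymal VIM (0.22, adjusted p = 0.000247) rose, while the authors' deposited table has both keratins at the opposite sign, 0.46 and 0.15. EPCAM, the lung lineage genes NKX2-1 and SFTPC, the immune genes PTPRC and CD3E and the endothelial gene PECAM1 are not among the listed genes.

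CBX6 stood apart from the other chromodomain genes. As CPM (read counts scaled to a common library size with TMM factors), CBX6 (ENSG00000183741) had 111, 106 and 101 in the control libraries and 20.4, 18.8 and 18.9 in the knockdown libraries. All 3 knockdown values were far below all 3 control values, and libraries of one group lay close together. The means were 106 ± 4.81 and 19.4 ± 0.89 CPM (SD, n = 3), a log2 fold change of -2.45 ± 0.06 (SE), which is a level 5.47-fold lower. The raw counts behind it summed to 20714 in control and 3768 in knockdown cells, so counting error was small. Only 14 of the 13846 genes, CBX6 and YEATS4 included, had a log2 fold change at or below that of CBX6. These values are from the counts, and the authors' deposited table has CBX6 at only -0.12 (adjusted p = 0.720), as described below. In bulk RNA, fewer cells with a transcript and less transcript per cell cannot be told apart.

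The other 3 chromodomain members each showed a different pattern. CBX2, the CBX subunit best known for compacting nucleosomes, had 10.0, 13.5 and 12.1 CPM in control and 6.52, 7.17 and 8.33 CPM in knockdown libraries. Every knockdown library was lower than every control library, with a log2 fold change of -0.69 ± 0.13 (SE). CBX2 was also the member with the widest spread between libraries, a coefficient of variation of 14.8% in control and 12.5% in knockdown cells. CBX7, known as a repressor of the INK4/ARF locus, had 18.9, 21.4 and 18.6 CPM in control and 19.4, 18.5 and 20.5 CPM in knockdown libraries. Its groups overlapped, and the log2 fold change was -0.01 ± 0.08 (SE). CBX8 had 8.78, 10.1 and 8.74 CPM in control and 11.0, 11.6 and 11.1 CPM in knockdown libraries. Here the knockdown libraries were the higher ones, without overlap, by 0.29 ± 0.09 on the log2 scale. RNF2, the ubiquitin ligase subunit, had 36.0, 37.5 and 38.4 CPM in control and 34.3, 38.8 and 35.1 CPM in knockdown libraries. Those ranges overlapped as well, and its log2 fold change was -0.05 ± 0.06 (SE).

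By the counts, the catalytic paralogues of PRC2 differed in opposite directions. EZH2 had 99.99, 112 and 114 CPM in control and 71.2, 76.2 and 79.4 CPM in knockdown libraries. Its knockdown level was lower in all libraries, with a log2 fold change of -0.52 ± 0.06 (SE). The authors' deposited table has EZH2 at only -0.06 (adjusted p = 0.429), so the opposite directions and the ratio below rest on the counts. EZH1 had 16.9, 16.5 and 16.0 CPM in control and 30.8, 29.6 and 32.6 CPM in knockdown libraries. It was higher in all knockdown libraries, by 0.91 ± 0.06 on the log2 scale, the largest difference upward among the 9 genes. The ratio of EZH2 to EZH1 counts in the same library, in which library size cancels, was 5.90, 6.79 and 7.12 in control and 2.31, 2.57 and 2.44 in knockdown cells. The ratio thus went from 6.60 ± 0.63 to 2.44 ± 0.13 (SD, n = 3); it is a ratio of counts not divided by transcript length, so only its change between groups can be read.

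The shared PRC2 subunits differed less. EED, which binds trimethylated lysine 27 and stimulates the enzyme, had 32.0, 30.8 and 32.3 CPM in control and 24.7, 23.3 and 26.6 CPM in knockdown libraries. The groups did not overlap, and the log2 fold change was -0.35 ± 0.06 (SE). SUZ12, the scaffold of the complex, had 78.4, 77.3 and 82.2 CPM in control and 72.7, 72.7 and 73.0 CPM in knockdown libraries. That was a small difference of -0.12 ± 0.05 (SE) on the log2 scale, and it was -0.09 without control library 3. The authors' deposited table calls neither gene, with EED at only -0.05 (adjusted p = 0.425) and SUZ12 at -0.03 (adjusted p = 0.392). SUZ12 has 2 named pseudogenes in RefSeq, and EED and RNF2 have 1 each, so reads could be shared with those copies. In all, 7 of the 9 genes had groups that did not overlap, 5 lower and 2 higher after knockdown. The same held for 72.3% of all tested genes (36.7% lower and 35.6% higher), and nothing is read from the count because the genes were chosen with this contrast known.

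**Figure D1:**
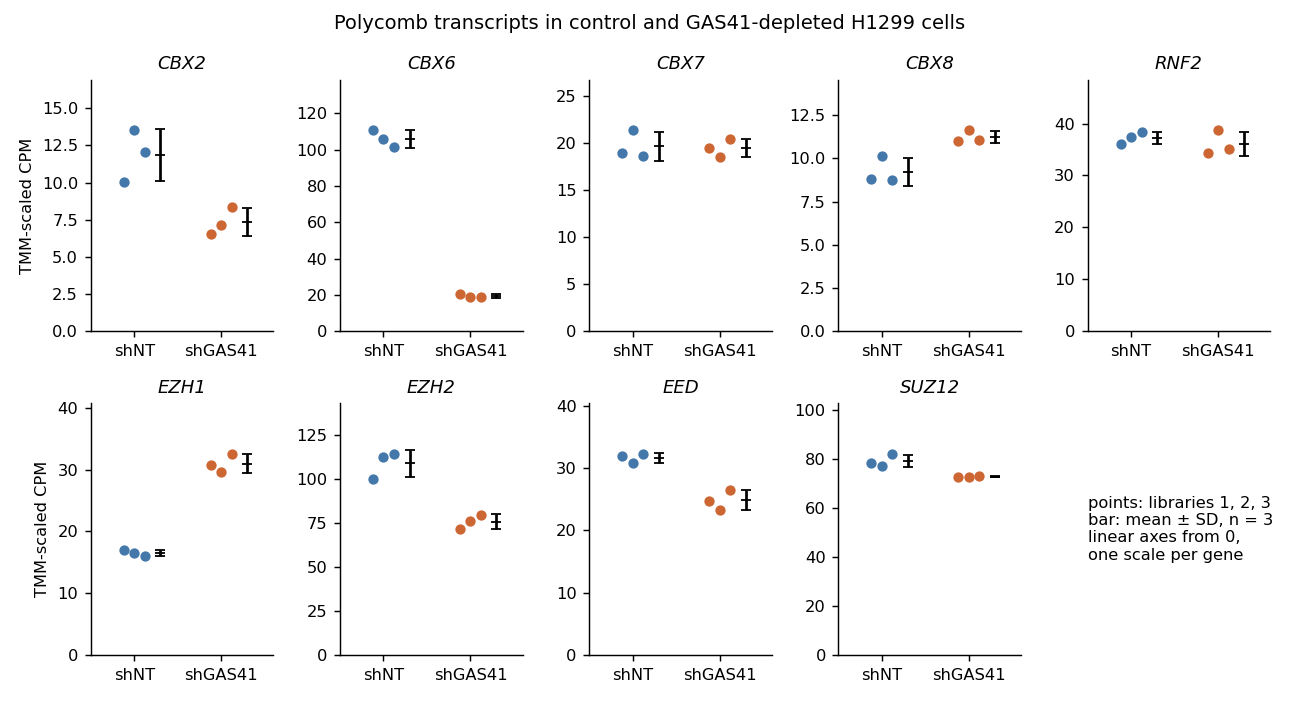
TMM-scaled CPM (vertical axis, linear from 0, one scale per gene) of the 9 Polycomb genes in the 3 shNT and 3 shGAS41 libraries, with the mean and SD beside the points. CBX6 averages 106 CPM under shNT and 19.4 CPM under shGAS41, EZH1 is the member with the largest difference upward, and the points of CBX7 and RNF2 overlap between groups.

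Some genes of cell division were lower in the same libraries in which EZH2 and EED were lower. All 8 proliferation markers looked at, chosen after their values were seen, fell: MKI67, PCNA, TOP2A, MCM2, MCM6, CCNB1, TYMS and E2F1. Nothing is read from that count because of the choice, and 34.5% of all tested genes were called lower. Their log2 fold changes lay between -1.43 and -0.59 with a median of -1.04, and their summed level was 2486 to 2594 CPM in control and 1331 to 1388 CPM in knockdown libraries. E2F1, a transcription factor known to act on EZH2 and EED, went from 78.5 ± 4.50 to 30.6 ± 2.97 CPM (SD, n = 3). The part of cell division in the EZH2, EED and EZH1 values was not tested.

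The remaining Polycomb genes were not among the chosen 9, and their test results are given. Their lists, and the HOX and target lists below, were also chosen with earlier results of these data known. The counts of calls in these lists are therefore a description. Of 55 further measured genes of PRC1, PRC2, H2A deubiquitination and H3K27 demethylation, 13 rose, 19 fell and 23 were not called, which is 58.2% called against 68.1% of all genes. Their median log2 fold change was -0.05, and none had one as low as CBX6: the range was -1.26 to 0.95. Each adjusted p that follows is from edgeR (quasi-likelihood test, Benjamini-Hochberg over all genes).

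Canonical PRC1 beyond the members was mostly flat. Of 9 genes, 2 rose and 1 fell, 33.3% called against 68.1% of all genes. PHC2, one of the polyhomeotic subunits that let PRC1 form clusters, rose from 190 ± 8.75 to 321 ± 15.7 CPM (SD, n = 3; log2 fold change 0.76, adjusted p = 6.76e-07). SCML2, another SAM-domain protein of PRC1, rose from 26.5 ± 2.82 to 51.1 ± 4.54 CPM (0.95, adjusted p = 6.02e-06). BMI1, the PCGF4 subunit that partners RNF2, fell by 0.16 on the log2 scale (adjusted p = 0.0404), a call that was lost in 6 of 12 alternative analyses. The BMI1 locus overlaps the COMMD3-BMI1 readthrough gene. The authors' deposited table does not call PHC2 (0.46, adjusted p = 0.118) or SCML2 (0.47, adjusted p = 0.293), and it calls BMI1 lower (-0.54, adjusted p = 0.0175). RING1, the paralogue of RNF2, had a log2 fold change of -0.14 (adjusted p = 0.0788) and was not called, and PHC1, PHC3, SCMH1, SCML1 and PCGF2 lay between -0.05 and 0.11, uncalled as well.

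Variant PRC1, which carries RYBP or YAF2 in place of a CBX protein, had more falls than rises. Of 23 measured genes 3 rose and 11 fell, and the median log2 fold change was -0.11. That is 60.9% called, against 68.1% of all genes (33.6% higher and 34.5% lower). USP7, CSNK2A1, CSNK2A2 and CSNK2B were among the falls. Of the falls, the authors' deposited table calls only PCGF6, TFDP1 and WDR5, and it gives L3MBTL2 the opposite sign (0.08). WDR5, a subunit of the PCGF6 complex that is shared with histone H3 lysine 4 methyltransferases, fell from 156 ± 7.32 to 84.3 ± 7.61 CPM (-0.89, adjusted p = 1.41e-06). FBRSL1 (-0.84, adjusted p = 2.34e-06), PCGF6 itself (-0.81, adjusted p = 1.13e-06) and TFDP1, the dimer partner of E2F proteins (-0.63, adjusted p = 4.90e-07), fell too. BCOR, of the PCGF1 complex, fell by 0.40 (adjusted p = 0.00593), whereas its paralogue BCORL1 rose by 0.20 (adjusted p = 0.0115). DCAF7 had the largest rise of the list (0.39, adjusted p = 1.13e-05). RYBP and YAF2 had values of -0.07 and 0.09 and were not called, nor was KDM2B (-0.09), the subunit that brings PRC1 to unmethylated CpG islands.

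PRC2 genes beyond the members, RBBP4 and RBBP7 and the accessory subunits, went both ways: of 9 measured genes 3 rose and 4 fell. That is 77.8% called against 68.1% of all genes. JARID2, which with AEBP2 defines the PRC2.2 form, rose from 25.0 ± 0.57 to 41.5 ± 1.96 CPM (0.73, adjusted p = 1.85e-06). LCOR, whose locus also encodes the PRC2 partner PALI1, rose by 0.37 (adjusted p = 0.00126). AEBP2 fell by 0.11 (adjusted p = 0.0466), a call lost in 9 of 12 alternative analyses, and the authors' deposited table has it at 0.14. RBBP7 fell by 0.17 (adjusted p = 0.00247). The histone chaperone gene RBBP4 fell from 179 ± 7.37 to 111 ± 1.18 CPM (-0.70, adjusted p = 5.04e-07), and PHF19, a Polycomb-like protein of the PRC2.1 form, fell by 0.36 (adjusted p = 8.20e-05). The other Polycomb-like genes MTF2 and PHF1 had log2 fold changes of 0.14 (adjusted p = 0.0462, lost in 6 of 12 alternative analyses) and -0.11 (adjusted p = 0.152). RBBP4 has 7 named pseudogenes in RefSeq, so its counts may hold reads of copies.

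Genes of the machinery that acts against Polycomb marks also differed in both directions. Among 12 measured genes of PR-DUB, the complex that removes ubiquitin from H2A, and of other H2A deubiquitination, 3 rose and 3 fell. That is 50% called, against 68.1% of all genes. FOXK2, a DNA-binding partner of PR-DUB, fell from 110 ± 6.42 to 46.1 ± 0.79 CPM (-1.26, adjusted p = 3.77e-08), while its paralogue FOXK1 fell by 0.21 (adjusted p = 0.00851). The authors' deposited table has FOXK2 at only -0.20 (adjusted p = 0.410) and FOXK1 at 0.12. OGT, the O-GlcNAc transferase, rose by 0.62 (adjusted p = 4.81e-07), MBD5 by 0.50 (adjusted p = 4.75e-05) and MBD6 by 0.35 (adjusted p = 0.00127). The deubiquitinase genes BAP1, the catalytic subunit of PR-DUB, and USP16 had log2 fold changes of -0.03 and 0.01 and ASXL1 one of -0.10, and none of these was called. MYSM1, another H2A deubiquitinase gene, fell by 0.19 (adjusted p = 0.0492), a call lost in 7 of 12 alternative analyses, and its value was -0.08 without control library 3. Both H3K27 demethylase genes rose a little, KDM6A by 0.24 (adjusted p = 0.00292) and KDM6B by 0.23 (adjusted p = 0.00936). The 3 HP1 genes CBX1, CBX3 and CBX5 have chromodomains that bind methylated lysine 9 and not lysine 27. Each fell by between 0.16 and 0.17, with adjusted p-values from 0.00610 to 0.0113, where 34.5% of all genes were called lower. The authors' deposited table calls none of the 3, with CBX1 at 0.06 (adjusted p = 0.811), CBX3 at -0.04 (adjusted p = 0.36) and CBX5 at -0.18 (adjusted p = 0.0552). CBX3 has 10 and CBX1 has 5 named pseudogenes.

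**Figure D2:**
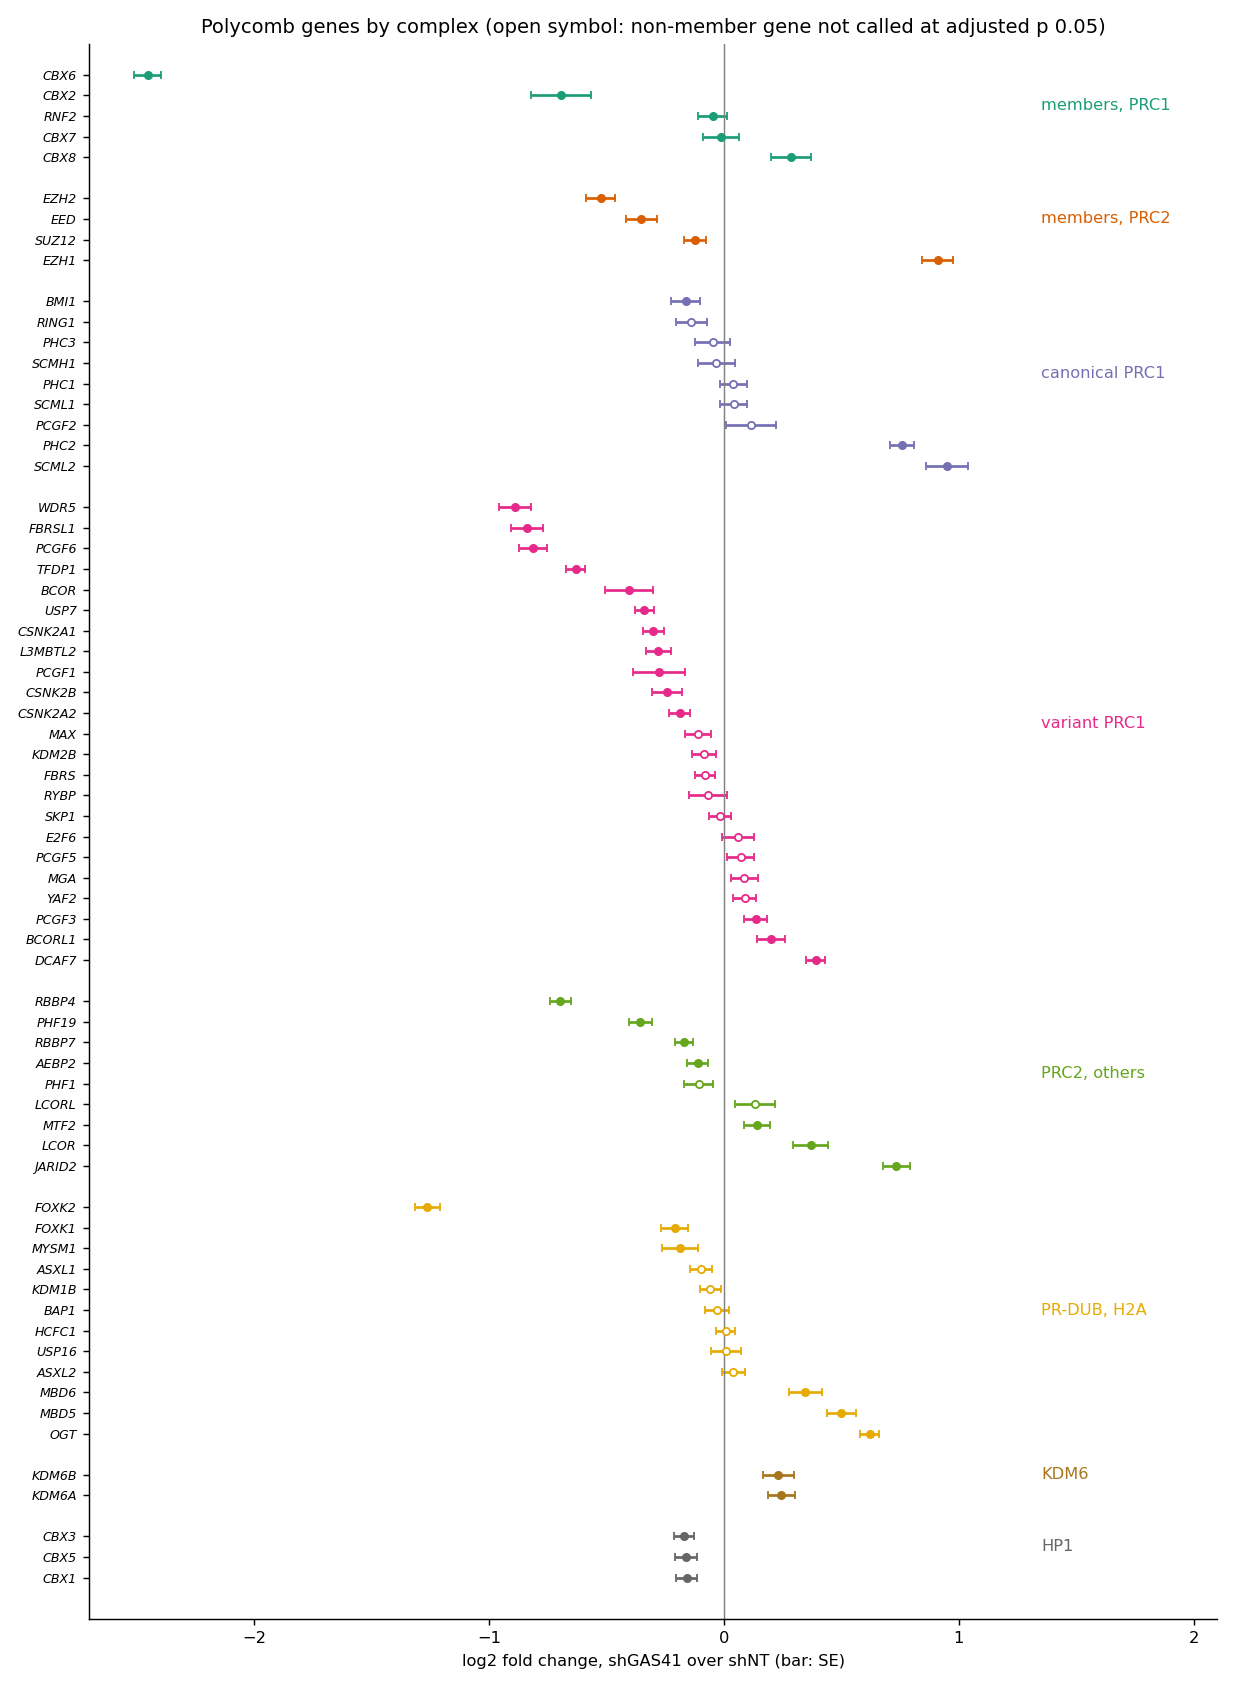
Log2 fold change of shGAS41 over shNT (horizontal axis, bar: SE) for the 9 members and 58 further genes, grouped by complex, with open symbols for non-member genes not called at an adjusted p of 0.05. CBX6 at -2.45 lies outside the range of -1.26 to 0.95 held by the other Polycomb machinery.

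Neighbouring genes did not share one direction. CBX6 and CBX7 lie on chromosome 22 with the APOBEC3 genes between them, and the nearest 5 measured genes on each side of CBX6 included CBX7. Of the other 9, 5 rose, 2 fell and 2 were not called, where 68.1% of all genes were called (33.6% higher and 34.5% lower). On one side NPTXR, a neuronal pentraxin receptor gene, rose from 2.13 to 7.06 CPM (log2 fold change 1.73, adjusted p = 4.26e-07). On the other, the cytidine deaminase gene APOBEC3C had a value of 0.10 (adjusted p = 0.192). Further out on that side APOBEC3D (1.10, adjusted p = 2.19e-05), APOBEC3F (0.75, adjusted p = 0.00330) and APOBEC3G (1.32, adjusted p = 4.97e-05) rose. The lowest value among these 9 neighbours of CBX6 was -0.45, for DNAL4. CBX2 and CBX8 sit close together on chromosome 17, and their log2 fold changes were -0.69 and 0.29. Of 10 nearby measured genes, 5 on each side, 2 rose, 4 fell and 4 were not called, from TIMP2 (-1.46, adjusted p = 4.86e-08), an inhibitor of matrix metalloproteinases, to LGALS3BP (2.69, adjusted p = 2.32e-08). In the authors' deposited table TIMP2 has the opposite sign, 0.37 (adjusted p = 0.761), and LGALS3BP is at 2.40.

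**Figure D3:**
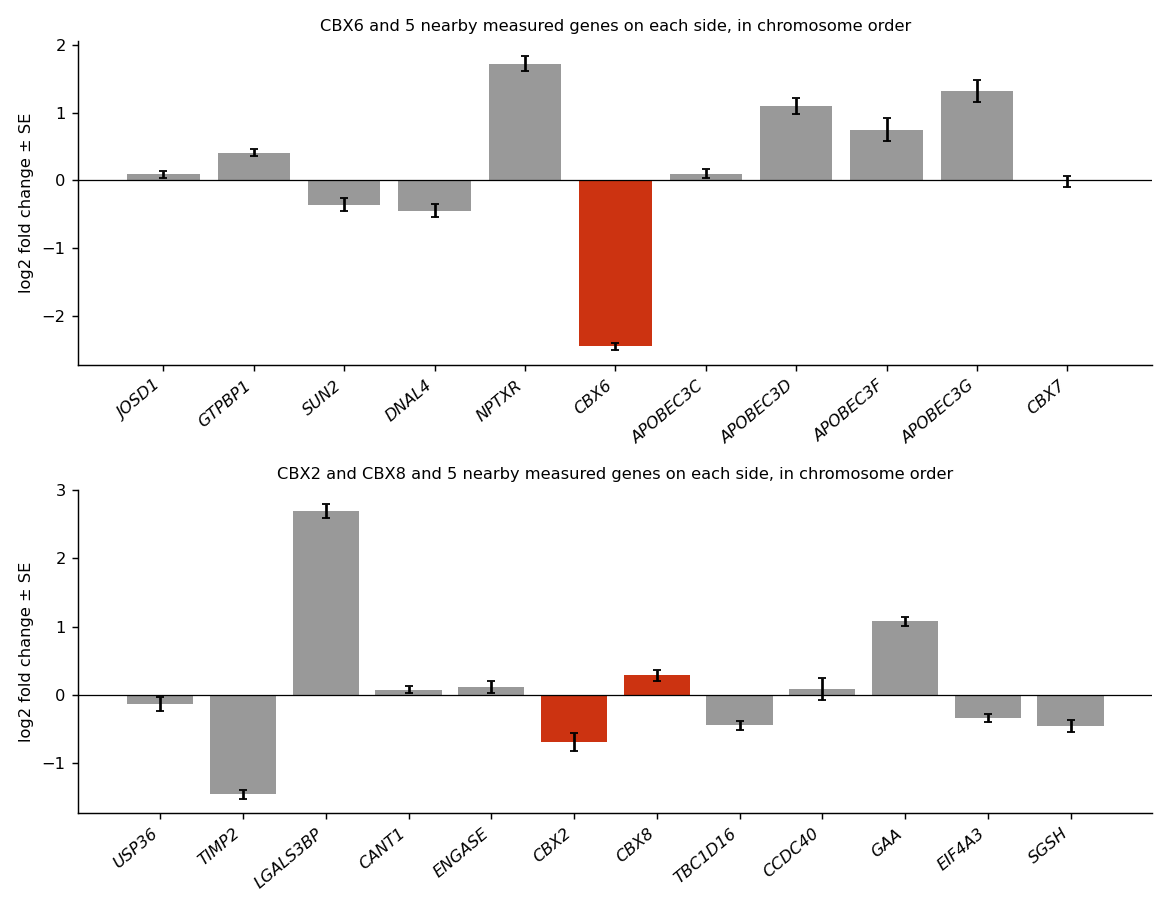
Log2 fold change with SE (bars from 0) of CBX6, of CBX2 and CBX8 (red) and of 5 nearby measured genes on each side (grey), in chromosome order by RefSeq. NPTXR at 1.73 and APOBEC3C at 0.10 flank CBX6 at -2.45.

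Genes that followed CBX6 most closely across the 6 libraries were found by the Euclidean distance of log2 CPM values taken relative to each gene's control mean. Among 10062 genes with a mean log2 CPM of at least 3, the 5 nearest were the pseudogene CENPBD1P1 (distance 0.0907), the syndecan gene SDC1 (0.152), the ubiquitin-conjugating enzyme gene UBE2C (0.236), the Sm-like protein gene LSM7 (0.245) and AATF (0.263). Their log2 fold changes lay between -2.55 and -2.33. CENPBD1P1 went from 30.4 ± 1.70 to 5.48 ± 0.070 CPM and SDC1 from 14.3 ± 0.53 to 2.70 ± 0.20 CPM (SD, n = 3). In all, 10 genes lay within a distance of 0.5. Since values are taken relative to the control mean, the distance mostly restates the size of the fold change.

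HOX genes, the classical targets of Polycomb repression, more often fell than rose. Of 38 listed HOX genes 24 were measured, of which 11 fell and 4 rose, 62.5% called. Over all genes 68.1% were called, 34.5% lower and 33.6% higher. The median log2 fold change of the measured HOX genes was -0.29, against -0.01 over all genes. The 4 rises became 1 without control library 2 and 1 without control library 3. HOXC6 fell from 30.7 ± 2.02 to 12.1 ± 1.18 CPM (SD, n = 3; -1.34, adjusted p = 4.44e-07), HOXD9 from 5.62 ± 0.51 to 1.56 ± 0.14 CPM (-1.85, adjusted p = 9.44e-07) and HOXB2 from 75.4 ± 0.39 to 44.4 ± 3.27 CPM (-0.76, adjusted p = 1.44e-06). The HOXB cluster held 5 of the 11 falls among its 9 measured genes. HOXA5 (0.43, adjusted p = 0.00635), HOXB8 (0.43, adjusted p = 0.0188) and HOXB3 (0.29, adjusted p = 0.0262) were the 3 rises of smallest p. The calls of HOXB8 and HOXB3 were each lost in 3 of 12 alternative analyses, and that of HOXD13, a fall, in 4. Of the 15 HOX genes called here, the authors' deposited table calls 6 in the same direction and gives HOXC8, a fall, the opposite sign (0.29). Of the HOX genes with values above, it calls HOXC6, HOXD9 and HOXB3 but not HOXB2, HOXA5 or HOXB8.

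**Figure D4:**
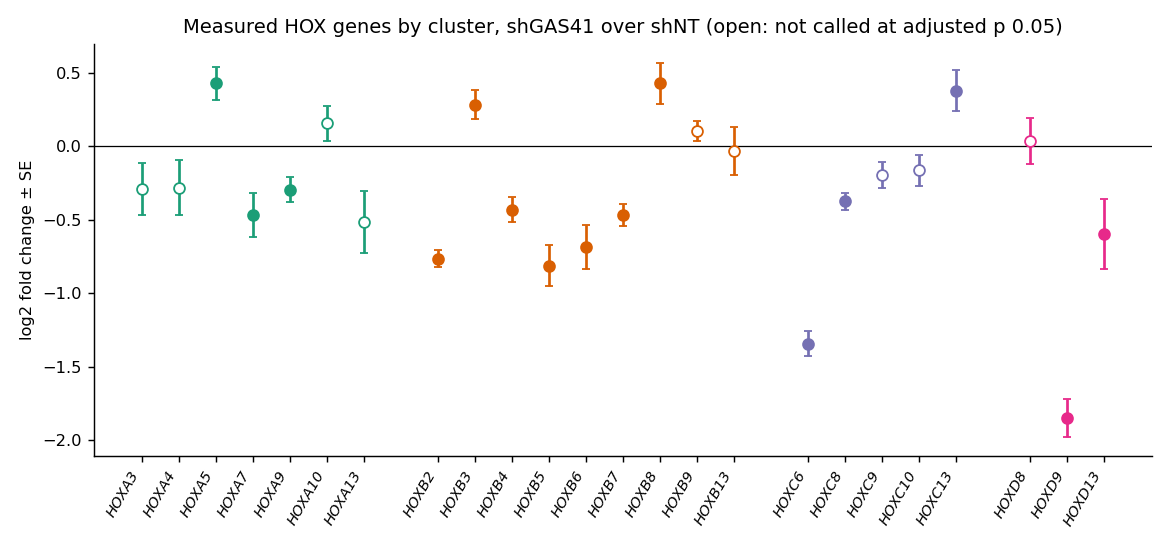
Log2 fold change with SE (vertical axis) of the 24 measured HOX genes by cluster and number, with open symbols where the gene was not called. HOXD9 at -1.85 and HOXC6 at -1.34 are the lowest, and HOXA5 and HOXB8 at 0.43 are the highest of those plotted.

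Other textbook targets of Polycomb showed no common direction. Of 34 listed genes 25 were measured, and 10 rose and 11 fell, with a median of -0.21. That is 84% called, against 68.1% of all genes (33.6% higher and 34.5% lower), and no set test was run on the list. CDKN2B, which encodes the cell cycle inhibitor p15 and is a classical target of CBX7, rose from 30.6 ± 6.50 to 110 ± 14.2 CPM (1.84, adjusted p = 2.80e-05). FBXO32, a ubiquitin ligase gene known to be repressed by EZH2, rose from 3.52 ± 0.35 to 9.63 ± 0.94 CPM (1.45, adjusted p = 1.84e-06), and the nuclear receptor gene RORA rose from 1.46 ± 0.29 to 4.30 ± 0.055 CPM (1.57, adjusted p = 1.12e-05). The developmental transcription factor genes WT1 (-1.31, adjusted p = 3.60e-06), LHX2 (-0.62, adjusted p = 2.03e-05) and MEIS2 (-0.61, adjusted p = 2.53e-05) fell. The authors' deposited table has MEIS2 at the opposite sign, 0.17 (adjusted p = 0.912), and it gives 6 of the 21 target genes called here the opposite sign and calls 10 of the 21 in the same direction. Whether any of these genes carries Polycomb proteins or methylated lysine 27 in H1299 was not measured in the files used here.

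The deposited table also holds the authors' own fold changes, and for CBX6 these differ from what its counts give. In the authors' deposited table CBX6 had a log2 fold change of -0.12 with an adjusted p of 0.720, whereas the counts of the same row, divided only by the library totals, give -2.48. The gap between the authors' value and the refitted one was 2.34, and 7 of the 13846 genes, CBX6 among them, had a gap at least as large, against a median gap of 0.19. For CBX2 the authors' deposited table has 0.19 where the counts give -0.69, and for EZH2 it has -0.06 where they give -0.52. For EZH1 both sources are close, at 0.89 in the authors' deposited table and 0.91 from the counts, and YEATS4 is at -4.43 and -4.68. CBX7 and RNF2, which were near 0 from the counts, are at 0.48 and 0.11 in the authors' deposited table. Examples of opposite sign there among other genes called from the counts are LCOR (-0.11), CBX1 (0.06) and DNAL4 (0.07). EZH1 is the only one of the 9 that the authors' deposited table calls at an adjusted p of 0.05 (2.44e-07).

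**Figure D5:**
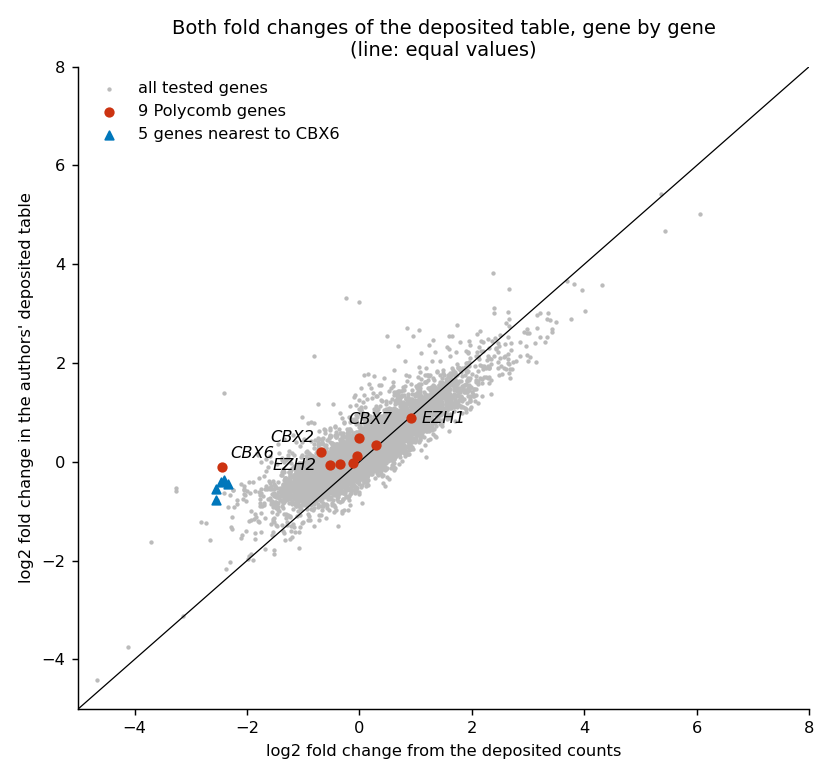
Log2 fold change in the authors' deposited table (vertical axis) against the one refitted from the deposited counts (horizontal axis) for all tested genes (grey), the 9 Polycomb genes (red) and the 5 genes nearest to CBX6 (blue), with the line of equal values. CBX6 lies far above the line, at -2.45 from its counts and -0.12 in the authors' deposited table, and EZH1 lies on it.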

How the data were processed

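RNA sequencing of 3 shNT and 3 shGAS41 libraries of H1299 cells was used. Per the labels' protocols, mRNA was made into TruSeq libraries. For the series as a whole, TopHat2 2.0.10, HTSeq, Bowtie2 2.1.0, CASAVA 1.8.2, MACS 1.4.2 and build hg19 are listed, per the submitters' processing notes. Counting options and strand use (not given in the sources used here) are unknown, so overlapping or antisense genes can share reads. The deposited table holds raw counts per Ensembl gene and library. It also holds the authors' log2 fold change, p-value and adjusted p-value, per the file headers, with no model stated.

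Counts were fitted with edgeR 4.0.16 (limma 3.58.1, R 4.3.3): TMM scaling, filterByExpr (7 genes left out), robust quasi-likelihood test, Benjamini-Hochberg adjustment over 13846 genes at 0.05. The SE is the log2 fold change divided by the square root of F. The code was tested on simulated data. Alternatives were DESeq2 1.42.0, other scalings, filters, a replicate block and each library left out. The members and lists were chosen with earlier results of these data known. Genes outside the 9 were named from the lists: any gene of the machinery lists, and in the HOX and target lists up to 3 rises and 3 falls of smallest p. Also named were the 5 genes nearest to CBX6, and neighbours. RefSeq (GRCh38.p14) gave neighbours, pseudogenes and promoters, matched by symbol: 13159 of 13846 genes and 7 of 9 members' promoters. Levels of different genes were not compared, because exon lengths were not used here. Some results are left out and not reported here. Gene shares within paralogue groups were therefore not computed.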

Additional observations from a re-analysis of the deposited data

How the results depend on the processing

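The log2 fold change of CBX6 lay between -2.49 and -2.41 in all 12 alternatives (DESeq2, RLE size factors, library size alone, no filter, 1 CPM in 3 libraries, the replicate block and 6 fits without 1 library each). EZH1 lay between 0.87 and 0.94, EZH2 between -0.57 and -0.48, EED between -0.40 and -0.31, CBX2 between -0.80 and -0.58 and CBX8 between 0.26 and 0.37, while CBX7 (-0.05 to 0.06) changed sign. The rises among HOX genes numbered between 1 and 3 in the fits without 1 library, and 4 in every other fit. Over 113 further genes, 1355 gene-by-alternative results held their call in 1264 cases, lost it in 64, gained it in 27 and reversed in 0. Calls lost or gained most often were those of AEBP2 (9 of 12 alternatives), MYSM1 (7), BMI1 (6) and MTF2 (6), all of small change.

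The groups share replicate numbers, and the correlation of deviations between libraries of the same number was 0.446, 0.0783 and 0.0940. Control library 1 correlated best with the knockdown library of its own number, and control libraries 2 and 3 did not. With 3 libraries per group these correlations cannot settle whether the numbers pair the libraries. With the replicate block 5134 genes rose and 5260 fell, against 4655 and 4770 without it, and CBX6 stayed at -2.45. The alternative of another gene length for shares within paralogue groups was not run. Depth was no limit for the members, whose lowest count was 424.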

Other observations

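The gap between both kinds of fold change was not spread evenly over directions. Of 44 genes whose counts give a log2 fold change of -2 or lower, 29 have a value above -1 in the authors' deposited table, CBX6 among them. Of 130 genes at 2 or higher from the counts, 0 have a value below 1 in the authors' deposited table. A gap of more than 1 occurred in 204 genes, and in 201 of these the value in the authors' deposited table was the higher one. All 5 genes nearest to CBX6 are of this kind: the authors' deposited table gives CENPBD1P1 -0.41, SDC1 -0.37, UBE2C -0.78, LSM7 -0.45 and AATF -0.56. Of the 32 machinery genes outside the 9 that were called from the counts, the authors' deposited table calls 10 in the same direction (31.2%) and gives 4 the opposite sign (12.5%). The same counts were 6 and 1 of 15 for HOX genes, 10 and 6 of 21 for the target genes, and 4403 (46.7%) and 830 (8.8%) of 9425 for all genes called from the counts. The cause was not tested, and the files do not state the model behind the authors' values.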
